A study of Homo sapiens with 18 samples.

Results

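Human embryonic stem cells of the H1 line that carried a control shRNA were compared before and after 6 days of differentiation as embryoid bodies. The 6 arrays were chosen by their sample titles, which name the state, the control shRNA and the replicate, and they are 6 of the 18 arrays of the series. In the pluripotent group (3 arrays) the cells grew without feeders on plates coated with Matrigel, in the medium mTeSR1. In the embryoid body group (3 arrays) cells had been aggregated in AggreWell plates and kept in APEL medium for 6 days. Medium and culture form thus changed with the state and cannot be told apart from differentiation. All 6 samples came from cells infected with a lentivirus that expresses a control shRNA, so the virus is shared by both states and is not what differs between them. The target sequence of that shRNA, any selection of infected cells and the interval between infection and differentiation are not given in the sources used here. Cells of the same line and in the same states but without lentivirus (untransduced, 3 arrays a state) served only to show where differentiation under the control shRNA differed. RNA was purified on RNeasy columns, labelled by the NuGEN protocol and hybridised to Affymetrix Human Gene 1.0 ST arrays. The values are log2 intensities, and a difference of 1 on that scale is a 2-fold difference in intensity.

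An embryoid body is a floating aggregate of stem cells in which cells leave pluripotency and form early derivatives of the germ layers, so each array reads a mixture. Pluripotent human cells depend on FGF and NODAL/activin signals, and when those weaken they tend to take an ectodermal path. At the edge of the neural plate, between future brain and future skin, WNT, BMP and FGF signals switch on border factors such as PAX3, MSX and the TFAP2 proteins. Border cells can then become neural crest, which expresses SNAI2, FOXD3, ETS1 and SOX10, changes its cadherins and migrates to form peripheral neurons, glia, pigment cells and much of the face. The series as a whole concerns KBTBD8, an adaptor of the ubiquitin ligase CUL3 with a known role in the fate of the neural crest.

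Of 18417 genes read by a probe set with exactly 1 symbol, 13454 lay above the 40th percentile of their array on at least 3 of the 6 arrays and were tested. A gene under that level on every array of 1 state (196 for pluripotent cells, 232 for embryoid bodies) was tested only through the other state and had to differ, so counts over lists describe the members tested and not all members. The replicates were close, with a median standard deviation of 0.11 between pluripotent arrays and 0.09 between embryoid body arrays. Each of the 12 untransduced and control shRNA arrays correlated best with its own group. The submitters call the samples independent without saying whether they were separate cultures or infections, so p-values measure the spread between these samples, which may be technical. Genes rose or fell at an adjusted p under 0.05 (limma, Benjamini-Hochberg over all genes tested). By this rule 7003 genes changed, or 52.1% of those tested. There were 3336 that rose (24.8%) and 3667 that fell (27.3%). At 2-fold or more, 516 rose (3.84%) and 533 fell (3.96%), together 7.8%. The groups did not overlap for 60.2% of genes, so a lack of overlap is common here. A fit of all 18 arrays, which includes KBTBD8 shRNA arrays numbered 2 that lie nearer to the other state, called 4778 genes, and it is named below where it ends a call or moves a count by over 1.5 times. The median difference over all genes tested was −0.02, against which the gene lists below are read.

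All 5 neural crest and neural plate markers given for these embryoid bodies rose, and 4 of them were among the 25 largest rises. TFAP2B, a border transcription factor, read 5.08, 4.82 and 5.37 on the pluripotent arrays and 10.89, 10.76 and 10.72 on the embryoid body arrays. Its difference of 5.70 ± 0.13 (log2 ± standard error, adjusted p 5.3e-09) was the largest of the genes tested, although all its pluripotent arrays lay under the 40th percentile. PAX6, which specifies the neural plate and the eye, read 4.55, 4.40 and 4.85 on the pluripotent arrays and 9.77, 9.53 and 9.55 on the embryoid body arrays, a rise of 5.02 ± 0.12 (adjusted p 7.5e-09). No array of a group came near the other group for either gene, and PAX6 too lay under the 40th percentile on all pluripotent arrays.

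PAX3, a border factor needed for crest formation, read 4.74, 4.70 and 5.16 on the pluripotent arrays and 9.41, 9.44 and 9.37 on the embryoid body arrays, and rose by 4.54 ± 0.12 (adjusted p 1.3e-08). SNAI2, a repressor that marks crest before and during migration, was at 6.68, 6.87 and 6.91 on the pluripotent arrays and 11.28, 11.28 and 11.12 on the embryoid body arrays, a rise of 4.41 ± 0.09 (adjusted p 3.1e-09). SOX10, the factor of crest that goes on to glia and pigment cells, was at 6.05, 6.15 and 5.93 on the pluripotent arrays and 8.13, 8.40 and 8.21 on the embryoid body arrays, and rose by 2.21 ± 0.10 (adjusted p 1.6e-07). For all 5 markers the lowest embryoid body array lay above the highest pluripotent array, where 60.2% of all genes had groups that did not overlap. However, 3 of the 5, TFAP2B, PAX6 and PAX3, lay under the 40th percentile on all pluripotent arrays. They were tested only through the embryoid body arrays and had to differ. The mean level of all 5 markers was 5.39 to 5.64 on the pluripotent arrays and 9.80 to 9.90 on the embryoid body arrays. In bulk RNA, fewer cells of a type and less RNA per cell cannot be told apart, here and throughout.

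**Figure D1:**
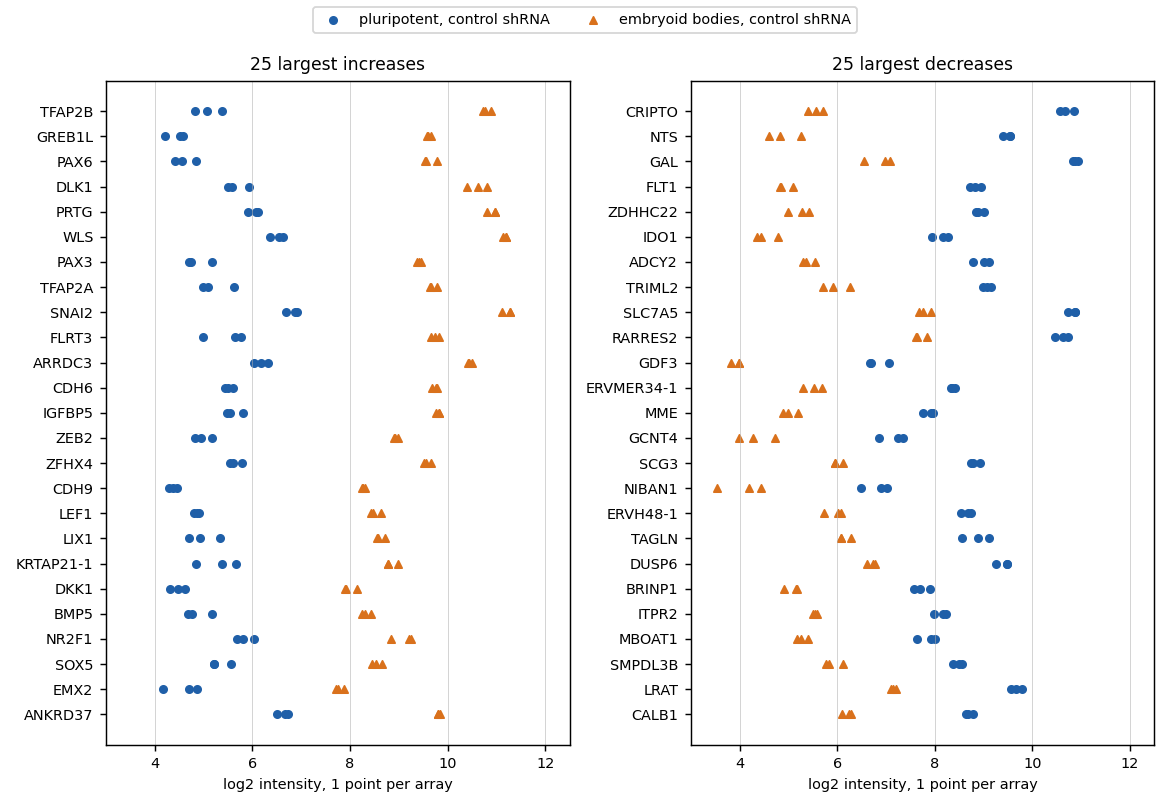
Log2 intensity of the 25 largest increases (left) and 25 largest decreases (right) on each array, with circles for the 3 pluripotent arrays and triangles for the 3 embryoid body arrays, both with the control shRNA. The 3 arrays of a state lie close together next to the distance between the states, as for TFAP2B (5.09 ± 0.28 and 10.8 ± 0.09, mean ± SD, n = 3).

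The 25 largest increases, from 5.70 for TFAP2B down to 3.19 for ANKRD37, were of several kinds. Among transcription factors stood TFAP2A (rise 4.45), a partner of TFAP2B, ZEB2 (3.95, or 2.59 with its probe sets averaged), a repressor of E-cadherin, NR2F1 (3.26), a nuclear receptor of forebrain and crest, SOX5 (3.22), a crest and neural factor, EMX2 (3.21), which patterns the cortex, and ZFHX4 (3.93), a zinc finger homeobox factor. WNT signalling was present with WLS (4.67), which carries WNT ligands to the cell surface, LEF1 (3.65), the nuclear effector that acts with beta-catenin, and DKK1 (3.52), a secreted inhibitor. The ligand BMP5 rose by 3.46. DLK1, a NOTCH-like surface ligand (4.93), and IGFBP5, which binds insulin-like growth factors (4.20), were also in this group.

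Surface proteins in the same ranking were the type II cadherins CDH6 (4.22) and CDH9 (3.90), PRTG, a receptor-like protein of the early neural tube (4.88), and FLRT3, an adhesion protein that takes part in FGF signalling (4.28). GREB1L stood second of all. It read 4.52, 4.21 and 4.57 on the pluripotent arrays and 9.65, 9.60 and 9.58 on the embryoid body arrays, a rise of 5.18 ± 0.10 (adjusted p 2.8e-09). The remaining members were ARRDC3, an arrestin-like adaptor of ubiquitin ligases (4.27), LIX1, named for its expression in the limb (3.63), ANKRD37, a target of hypoxia signalling, and KRTAP21-1 (3.56). KRTAP21-1 encodes a keratin-associated protein of hair, and its rise was 2.03 with its probe sets averaged.

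Of these 25 genes, 11 lay under the 40th percentile on all pluripotent arrays, so their rises start from intensities near the low end of the array. The lists used here held 19 of the 25. In untransduced cells 23 of the 25 rose as well.

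The 25 largest decreases ran from −5.13 for CRIPTO to −2.49 for CALB1. CRIPTO, the coreceptor of NODAL and GDF3, read 10.67, 10.85 and 10.56 on the pluripotent arrays and 5.40, 5.72 and 5.57 on the embryoid body arrays, a fall of 35.0-fold in intensity with 1 of the embryoid body arrays under the 40th percentile (adjusted p 3.1e-09). GDF3, a ligand of the same pathway, fell by 2.87. The secreted peptides NTS (neurotensin, −4.59) and GAL (galanin, −4.02) came next in size. The list of receptors and transporters held FLT1, a VEGF receptor (−3.91), SLC7A5, which imports large neutral amino acids (−3.04), ITPR2, a calcium channel of the endoplasmic reticulum (−2.58), and MME, the peptidase neprilysin (−2.86).

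Enzymes among the largest decreases were IDO1, which degrades tryptophan (−3.60), ADCY2, an adenylyl cyclase (−3.57), LRAT, which esterifies retinol (−2.52), ZDHHC22, a palmitoyltransferase (−3.69), GCNT4, a glycosyltransferase (−2.82), MBOAT1, an acyltransferase of phospholipids (−2.58), and SMPDL3B, a phosphodiesterase of membrane lipids (−2.57). DUSP6, the phosphatase that restrains ERK and is itself an ERK target, read 9.25, 9.48 and 9.48 on the pluripotent arrays and 6.61, 6.78 and 6.74 on the embryoid body arrays and fell by 2.69 ± 0.09. A pair of envelope genes of endogenous retroviruses, ERVMER34-1 (−2.86) and ERVH48-1 (−2.71), were on the list, and the ERVH48-1 call was lost in a fit of all 18 arrays (adjusted p 0.05). The other members were TRIML2 (−3.10), RARRES2, which encodes the chemoattractant chemerin (−2.91), SCG3, a granin of secretory granules (−2.81), NIBAN1 (−2.75), TAGLN, an actin-binding protein (−2.71), BRINP1 (−2.64) and CALB1, a calcium buffer. Under the 40th percentile on all embryoid body arrays were 10 of the 25, and all 25 fell in untransduced cells too. The lists held only 7 of the 25.

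**Figure D2:**
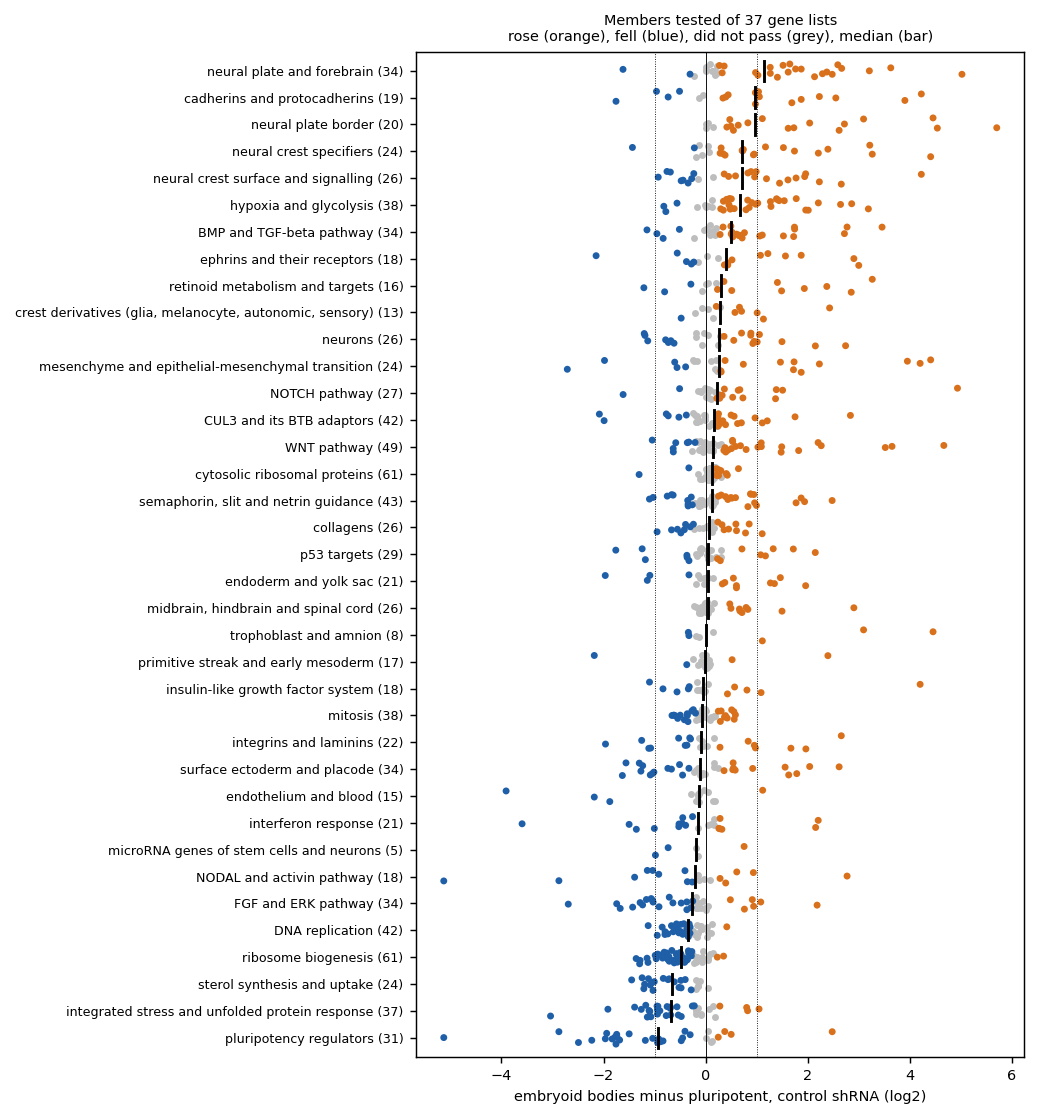
Difference between embryoid bodies and pluripotent cells (log2) for every tested member of 37 gene lists, with the number of members tested in brackets, orange for members that rose, blue for members that fell, grey for those that did not pass, and a black bar at the list's median. The neural plate and forebrain list has a median of 1.14 and the pluripotency list one of −0.94, and members that did not pass the filter are not drawn.

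Regulators of pluripotency were the list with the lowest median, −0.94, or −0.93 with no filter. Of 31 members tested, 23 fell and 4 rose, against 27.3% and 24.8% of all genes, and 15 of the falls were 2-fold or more. The summed picture was partial: the mean level of the list was 8.98 to 9.03 on pluripotent arrays and 7.95 to 8.0 on embryoid body arrays. After CRIPTO and GDF3, the largest falls were those of POLR3G, a subunit of RNA polymerase III (−2.49), and PRDM14, a regulator of the naive and germline programmes (−2.23). Telomere protein TERF1 (−1.77), the transposon-derived L1TD1 (−1.73) and the chromatin-bound deubiquitinase USP44 (−1.94) lost between 2- and 4-fold of their intensity. OTX2, which also patterns the forebrain, rose by 2.48 and was the only rise in this list of 2-fold or more.

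Surface proteins of stem cells fell but kept high intensities. PODXL, the podocalyxin that carries stem cell surface epitopes, read 11.90, 11.96 and 12.03 on the pluripotent arrays and 10.14, 10.13 and 10.11 on the embryoid body arrays and fell by 1.83 ± 0.07 (adjusted p 8.9e-08). CD9, a tetraspanin, was at 10.43, 10.48 and 10.46 on the pluripotent arrays and 8.52, 8.41 and 8.56 on the embryoid body arrays and fell by 1.96 ± 0.07 (adjusted p 7.0e-08). The groups were apart for both, yet the embryoid body values of PODXL were still above 10 on the log2 scale. POU5F1 and NANOG are read only by probe sets with several symbols and were not analysed here as genes. DPPA2, KLF4 and TFCP2L1 were on the array but stayed below the threshold for testing.

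MicroRNAs of the miR-302 family are the most abundant ones of human pluripotent cells, and miR-21 is a common marker of differentiated and mesenchymal cells. Their mature sequences are shown because the members of the miR-302 family share a seed, the 7 bases that select targets, and miR-21 does not. They were read from RefSeq (GRCh38.p14), 5′ to 3′, with bases 2 to 8 in capitals. The miR-302a arm lies at chr4:112648186-112648208 and the miR-302b arm at chr4:112648489-112648511, both on the minus strand, and miR-21-5p lies at chr17:59841273-59841294 on the plus strand.
hsa-miR-302a-3p: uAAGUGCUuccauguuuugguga
hsa-miR-302b-3p: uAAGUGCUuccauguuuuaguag
hsa-miR-21-5p: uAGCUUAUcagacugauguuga
The probe sets read the genes of these microRNAs, and what they report about the mature forms was not tested. MIR302A was at 9.64, 9.89 and 9.64 on the pluripotent arrays and 9.09, 8.40 and 8.72 on the embryoid body arrays and fell by 0.98 ± 0.16 (adjusted p 6.0e-04). MIR302B, with the same seed AAGUGCU, was at 7.08, 7.43 and 7.26 on the pluripotent arrays and 6.67, 6.35 and 6.55 on the embryoid body arrays and fell by 0.73 ± 0.11 (adjusted p 4.8e-04). On every embryoid body array both stayed above the 40th percentile. MIR21 went the other way, with 6.76, 7.0 and 7.02 on the pluripotent arrays and 7.63, 7.73 and 7.69 on the embryoid body arrays, a rise of 0.75 ± 0.09 (adjusted p 8.6e-05) that did not pass in a fit of all 18 arrays. In untransduced cells the same genes moved by −4.49 for MIR302A, −3.17 for MIR302B and −2.20 for MIR21. Of the 5 tested members of the microRNA list, MIR210 (−0.19) and MIR200B (−0.15) did not pass.

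The ligands NODAL and GDF3 and their coreceptor CRIPTO fell. In the NODAL and activin list, 9 of 18 members tested fell and 5 rose (median −0.21). However, 3 of the 18 lay under the 40th percentile on all embryoid body arrays and had to differ. Of the 15 above it on at least 1 array of each state, 6 fell and 5 rose (median −0.14). NODAL itself fell by 1.04 ± 0.11, its feedback inhibitor LEFTY2 by 0.92 ± 0.13 and the secreted antagonist CER1 by 1.14 ± 0.14. Follistatin, encoded by FST and an inhibitor of activin, rose by 2.77 ± 0.15, from 6.73 to 9.50 on the array means. The activin receptor ACVR1B (0.94) and the signal transducer SMAD3 (0.61) rose.

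In the FGF and ERK list, 18 of 34 members fell and 6 rose (median −0.27). The falls took in the ERK targets DUSP6 (−2.69), ETV4 (−1.74) and ETV5 (−1.16), the inhibitors SPRY4 (−1.67) and IL17RD (−1.07), the ligand FGF19 (−1.43) and the receptor FGFR4 (−1.23). Immediate early genes of the same list went up. EGR1, an early response factor, read 7.62, 7.81 and 7.70 on the pluripotent arrays and 9.78, 9.98 and 9.91 on the embryoid body arrays, a rise of 2.18 ± 0.09 (adjusted p 9.4e-08), and FOS rose by 1.08.

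Most neural plate border factors were higher. Of 20 members tested 16 rose, 10 of them by 2-fold or more, and the other 4 did not pass (median 0.97). However, 6 of the 20 were under the 40th percentile on all pluripotent arrays, so they entered the test through the embryoid body arrays and had to differ. Over all 21 members on the array, with no filter, 16 rose and the median was 0.83. In a fit of all 18 arrays 10 rose. TFAP2A, which acts early at the border, was at 5.09, 5.63 and 4.99 on the pluripotent arrays and 9.63, 9.79 and 9.65 on the embryoid body arrays (adjusted p 4.5e-08), and TFAP2C, which is also a factor of trophoblast and germ cells, was at 5.64, 5.69 and 5.39 on the pluripotent arrays and 8.6, 8.67 and 8.74 on the embryoid body arrays, a rise of 3.09 ± 0.09 (adjusted p 2.8e-08). Neither gene's groups overlapped.

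MSX2, a BMP-induced homeobox repressor, rose by 2.72 ± 0.17 and DLX3, a homeobox factor of the outer border, by 2.04 ± 0.10. PAX7, the close relative of PAX3 and a crest marker, rose by 1.73 ± 0.18, with 5.78, 5.24 and 5.07 on the pluripotent arrays and 6.85, 7.22 and 7.20 on the embryoid body arrays (adjusted p 3.5e-05). ZIC1 (1.62), a zinc finger factor that acts with PAX3, DLX5 (2.61) and GATA3 (1.11), a factor of the non-neural side, rose too, although DLX5 and GATA3 did not pass in a fit of all 18 arrays.

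Among the specifiers of the crest itself, 17 of 24 tested rose and 2 fell, with 8 rises of 2-fold or more (median 0.72). Besides SNAI2 and SOX10, MEF2C, a factor of crest, muscle and neurons, rose by 2.39 ± 0.12. ETS1, a factor of cranial crest, read 7.93, 7.96 and 8.17 on the pluripotent arrays and 9.31, 9.14 and 9.12 on the embryoid body arrays, a rise of 1.17 ± 0.09 (adjusted p 6.5e-06). FOXD3, which serves both pluripotent cells and premigratory crest, was at 5.76, 5.63 and 5.49 on the pluripotent arrays and 6.65, 6.67 and 6.41 on the embryoid body arrays, a rise of 0.95 ± 0.10 (adjusted p 4.3e-05). The groups were apart for both genes, by less than for the border factors.

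The inhibitors of basic helix-loop-helix factors ID4 (1.74) and ID2 (1.52), which BMP induces, were higher. SOX9, an early crest and glial factor, rose by 0.72. MYC, a growth regulator that is also active at the border, fell by 1.43 ± 0.09. SNAI1, the relative of SNAI2, rose by 0.74, a call that was lost in a fit of all 18 arrays. ALX1, SOX6 and RXRG did not reach the level needed for a test.

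**Figure D3:**
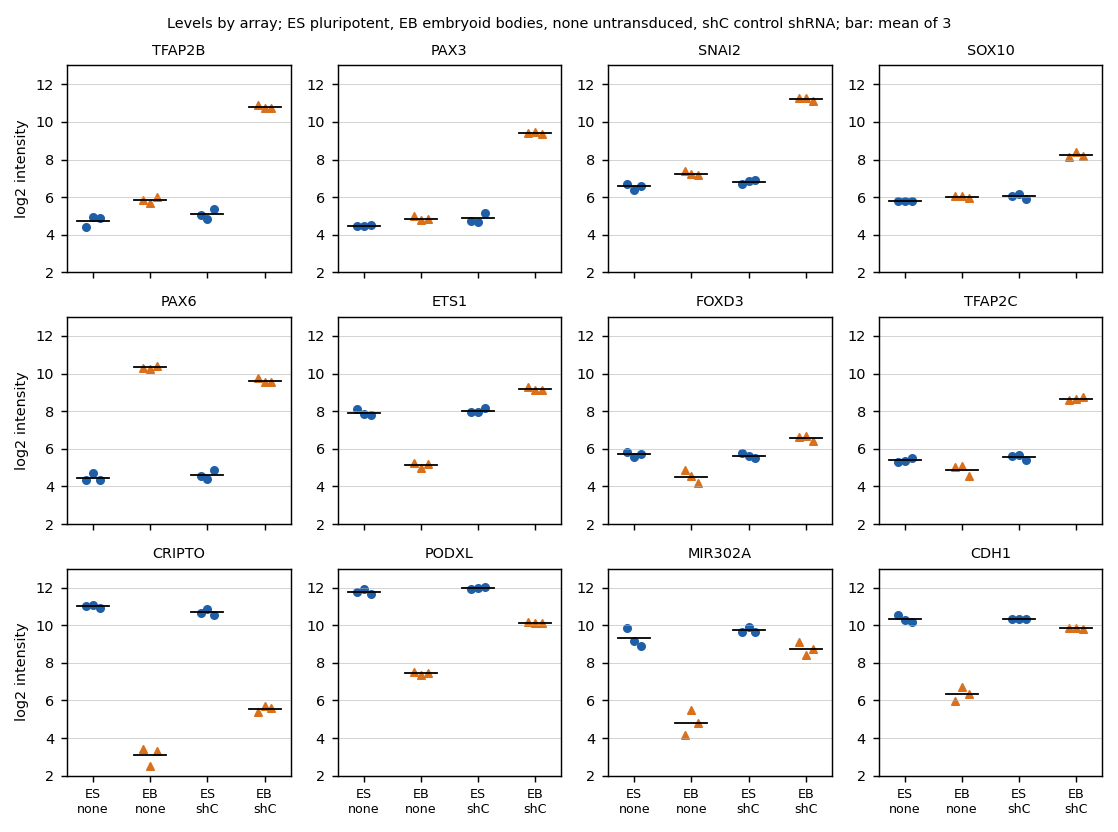
Log2 intensity of 12 genes on each array, with circles for pluripotent cells, triangles for embryoid bodies and a bar for the mean of 3, in cells without lentivirus (none) and with the control shRNA (shC). TFAP2B, PAX3, SNAI2 and SOX10 are highest in the embryoid bodies with the control shRNA, PAX6 is high in both kinds of embryoid body, and PODXL, MIR302A and CDH1 fell less with the control shRNA.

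Surface and signalling molecules of crest cells moved in both directions: 16 of 26 rose and 8 fell (median 0.71), and all 9 changes of 2-fold or more were rises. In a fit of all 18 arrays 5 fell. Of the 26, 3 lay under the 40th percentile on all pluripotent arrays, ITGA4 among them, and had to differ. Of the 23 above it on at least 1 array of each state, 13 rose and 8 fell (median 0.45). ITGA4, the integrin chain used in migration on fibronectin, was at 5.15, 4.97 and 5.35 on the pluripotent arrays and 7.88, 7.81 and 7.76 on the embryoid body arrays, a rise of 2.66 ± 0.10 (adjusted p 8.4e-08). PDGFRA, the platelet-derived growth factor receptor of mesenchymal crest, rose by 1.94 ± 0.15, and CXCR4, a chemokine receptor, by 1.96 ± 0.07. NRP2, a semaphorin receptor that confines crest streams, read 7.28, 7.29 and 7.39 on the pluripotent arrays and 9.09, 9.10 and 9.08 on the embryoid body arrays, a rise of 1.77 ± 0.07 (adjusted p 9.8e-08). NGFR, the p75 receptor by which crest cells are often sorted, rose by 0.99. CD44, a hyaluronan receptor of mesenchymal crest, fell by 0.93 ± 0.08.

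Later derivatives of the crest were represented by few genes. Of 13 members tested 7 rose. S100B, a calcium-binding protein of glia, rose most, by 2.43 ± 0.14, with 5.01, 4.90 and 5.26 on the pluripotent arrays and 7.69, 7.17 and 7.59 on the embryoid body arrays. All its pluripotent arrays lay under the 40th percentile, so S100B had to differ. FABP7, a lipid carrier of early glia and radial glia, rose by 1.13, and the sensory neuron factors POU4F1 and NEUROG1 by 1.01 and 0.70. TH (0.28) and DBH (−0.20), enzymes of catecholamine synthesis, did not pass. The pigment cell genes MITF, TYR and TYRP1, the autonomic factors PHOX2A and HAND2 and the sensory gene ISL1 were below the 40th percentile on all 6 arrays and were not tested.

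Neural plate and forebrain genes included PAX6. Of 34 members 22 rose, 18 by 2-fold or more, and 2 fell. The median was 1.14, but 8 of the 34 had to differ, since they lay under the 40th percentile on all pluripotent arrays. With no filter 22 of 38 rose and the median was 0.67. LIX1 and EMX2 followed PAX6 in size. DACH1, an eye and forebrain cofactor, rose by 2.66 ± 0.09, FEZF1, a forebrain repressor, by 2.59 ± 0.16, OTX1, a relative of OTX2, by 2.29 ± 0.14, and LHX5, a forebrain homeobox factor, by 2.13 ± 0.08. MEIS2, a homeobox cofactor, rose by 2.37, and SIX3, which specifies the anterior forebrain, by 1.76, though the call for SIX3 was lost in a fit of all 18 arrays. PROM1, a membrane protein of stem and neuroepithelial cells, was the main fall (−1.62).

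In the midbrain, hindbrain and spinal cord list 9 of 26 rose (median 0.04). The ephrin receptor EPHA4 rose by 2.90 and PAX2, a midbrain-hindbrain and kidney factor, by 1.5. WNT1, a ligand of the dorsal midbrain, rose by 0.79, and the dorsal midline factors LMX1A and LMX1B by 0.66 and 0.67. FGF8 (−0.20) and PAX8 (0.16) did not pass. HOXA2, HOXB2 and HOXD3, which mark the hindbrain, OLIG2 and NKX2-2 were below the 40th percentile on all arrays.

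Neuronal genes were mixed: 12 of 26 rose and 7 fell (median 0.26). MAP2, a microtubule protein of dendrites, rose by 2.74 ± 0.09. STMN2, a tubulin regulator of growing axons, read 5.77, 5.78 and 6.16 on the pluripotent arrays and 8.11, 7.90 and 8.15 on the embryoid body arrays, a rise of 2.15 ± 0.12 (adjusted p 6.9e-07). The RNA-binding protein ELAVL4 rose by 1.05 and DCX, a marker of migrating neurons, by 0.88. The synaptic vesicle proteins SYT1 (−1.20) and SYT4 (−1.19) and RBFOX3, an RNA-binding protein of mature neurons (−1.13, or −0.37 with its probe sets averaged), fell. The SYT4 call was lost in a fit of all 18 arrays.

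Among WNT signalling genes 21 of 49 were up and 7 down (median 0.14, or 0.07 with no filter), with 13 up in a fit of all 18 arrays. Of the 49, 5 lay under the 40th percentile on all pluripotent arrays and 1 on all embryoid body arrays, and these had to differ. Of the 43 above it on at least 1 array of each state, 16 rose and 6 fell (median 0.07). WLS was at 6.35, 6.54 and 6.62 on the pluripotent arrays and 11.19, 11.13 and 11.19 on the embryoid body arrays, a rise of 4.67 ± 0.09 (adjusted p 2.8e-09). LEF1 was at 4.87, 4.90 and 4.81 on the pluripotent arrays and 8.63, 8.42 and 8.48 on the embryoid body arrays, a rise of 3.65 ± 0.08 (adjusted p 5.0e-09). DKK1, which blocks the LRP coreceptors and is also a WNT target, was at 4.47, 4.61 and 4.31 on the pluripotent arrays and 8.14, 7.90 and 7.91 on the embryoid body arrays (adjusted p 2.2e-08). For these genes every embryoid body array lay at least 3 log2 units above every pluripotent array. However, all pluripotent arrays of LEF1 and DKK1 lay under the 40th percentile, so both had to differ.

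The feedback targets of beta-catenin AXIN2 (1.48) and NKD1 (1.09) rose, as did TNFRSF19 (1.82) and APCDD1 (1.09), a membrane-bound inhibitor. Of the secreted enhancers, RSPO3 rose by 2.26 ± 0.11. FZD3, a receptor of neural tube and crest, rose by 1.49, whereas the secreted antagonist WIF1 fell by 1.05 ± 0.11. WNT5A, WNT7A, WNT7B and WNT8A were below the 40th percentile on all arrays.

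In the BMP and TGF-beta list 20 of 34 rose and 4 fell (median 0.50, or 0.20 over the 41 on the array with no filter). The ligand BMP5 was at 5.18, 4.68 and 4.76 on the pluripotent arrays and 8.24, 8.43 and 8.31 on the embryoid body arrays (adjusted p 6.2e-08). BMP5 was among 4 members under the 40th percentile on all pluripotent arrays, and these had to differ. The secreted antagonists FST, GREM1 (1.74), NOG (1.06) and the modulator BMPER (1.72) rose alongside the targets MSX2, ID4 and ID2. The pseudoreceptor BAMBI (−1.15), the inhibitor SMAD7 (−0.95) and the antagonist CHRDL1 (−0.83) fell.

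NOTCH genes rose in 13 of 27 cases and fell in 2 (median 0.22), with 8 rises in a fit of all 18 arrays. DLK1, a ligand that lacks the usual NOTCH-binding motif, was at 5.50, 5.58 and 5.92 on the pluripotent arrays and 10.39, 10.80 and 10.61 on the embryoid body arrays, a rise of 4.93 ± 0.13 (adjusted p 1.5e-08). The ligands JAG1 (1.38) and DLL1 (1.37) rose. Of the target repressors, HEY1 rose by 1.51 and HEY2 fell by 1.62 ± 0.07.

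Retinoid genes rose in 9 of 16 cases and fell in 3 (median 0.29). CYP26A1, which degrades retinoic acid and is induced by it, was at 5.47, 5.13 and 5.0 on the pluripotent arrays and 7.22, 7.14 and 7.04 on the embryoid body arrays, a rise of 1.93 ± 0.12 (adjusted p 1.4e-06). All its pluripotent arrays lay under the 40th percentile, so CYP26A1 had to differ. CRABP2, which carries retinoic acid to the nucleus, rose by 2.85 ± 0.09 and STRA6, a receptor for retinol uptake, by 1.49 ± 0.08. DHRS3 (−1.21) and RDH10 (−0.80), enzymes of retinal and retinol conversion, fell together with LRAT. In the insulin-like growth factor list 5 of 18 rose and 5 fell (3 in a fit of all 18 arrays), close to the 24.8% and 27.3% of all genes. IGFBP5 was at 5.80, 5.49 and 5.53 on the pluripotent arrays and 9.83, 9.83 and 9.76 on the embryoid body arrays (adjusted p 5.1e-09), while IGFBP4 fell by 1.10 ± 0.09 and IGFBP2 rose by 0.81.

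Cadherins of neural and crest cells rose, while E-cadherin fell slightly. Of 19 cadherins and protocadherins 13 rose and 4 fell (median 0.97, or 0.45 over the 26 on the array with no filter). CDH1, E-cadherin, (named after its value was seen) was at 10.35, 10.34 and 10.32 on the pluripotent arrays and 9.83, 9.84 and 9.81 on the embryoid body arrays and fell by 0.51 ± 0.07 (adjusted p 1.8e-04), which left it near 10. CDH2, N-cadherin, rose by 1.87 ± 0.09, from 9.23 to 11.10 on average. CDH6 was at 5.44, 5.61 and 5.51 on the pluripotent arrays and 9.79, 9.75 and 9.69 on the embryoid body arrays (adjusted p 2.8e-09) and CDH9 at 4.45, 4.37 and 4.29 on the pluripotent arrays and 8.24, 8.30 and 8.27 on the embryoid body arrays (adjusted p 2.8e-09). CDH9 was among 3 members under the 40th percentile on all pluripotent arrays, and these had to differ. CDH11 (2.23) and CDH20 (1.69), further type II cadherins of neural tube and crest, and PCDH10 (2.55) rose, and CDH3, P-cadherin, fell by 1.76 ± 0.09.

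Surface ectoderm and placode genes moved both ways, with 11 of 34 up and 13 down (median −0.10). However, 4 of the 34 lay under the 40th percentile on all pluripotent arrays and had to differ. Of the 30 above it on at least 1 array of each state, 7 rose and 13 fell (median −0.18). Over all 34, the rises numbered 7 in a fit of all 18 arrays. Up were GRHL3, a factor of the outer skin layer (1.78), and the placode cofactors EYA4 (1.63) and EYA1 (1.56), of which EYA1 was lost in that fit. Down were genes of tight epithelium: the claudins CLDN7 (−1.63), CLDN6 (−1.04) and CLDN10 (−1.27), the splicing regulator ESRP2 (−1.56), GRHL2 (−1.30) and keratin KRT18 (−1.08). EPCAM, an epithelial adhesion protein, was at 10.65, 10.88 and 10.97 on the pluripotent arrays and 10.35, 9.88 and 10.07 on the embryoid body arrays and fell by 0.74 ± 0.13 (adjusted p 1.0e-03), a call that was lost when 12 or 18 arrays were fitted together. KRT5, a keratin of basal skin, was below the 40th percentile on all arrays.

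In the mesenchyme and epithelial-mesenchymal transition list 12 of 24 rose and 5 fell (median 0.26). ZEB2 was at 5.18, 4.96 and 4.83 on the pluripotent arrays and 8.91, 8.92 and 8.99 on the embryoid body arrays (adjusted p 8.0e-09), ZEB1 rose by 1.72 and VIM, vimentin, by 1.47. ZEB2 was among 3 members under the 40th percentile on all pluripotent arrays, and these had to differ. TAGLN fell, and so did THY1, a surface glycoprotein of stem cells and fibroblasts (−1.98), and FN1, fibronectin (−0.61). SNAI2 and, of the cadherins named above, CDH2 and CDH11 are also members of this list.

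Matrix and adhesion genes had medians near that of all genes. In the collagen list 9 of 26 rose and 8 fell, against 24.8% and 27.3% of all genes. COL11A2 (1.11) and COL1A2 (0.85) were up and COL5A2 (−0.95) was down. In the integrin and laminin list 7 of 22 rose and 9 fell. However, 3 of the 22, ITGA4 among them, lay under the 40th percentile on all pluripotent arrays and 1 on all embryoid body arrays. These had to differ. Of the 18 above it on at least 1 array of each state, 4 rose and 8 fell. LAMA4 (1.96) and ITGA8 (1.67) rose with ITGA4, and ITGB5 (−1.96), ITGA6, the laminin receptor of stem cells on Matrigel (−1.25), and ITGA3 (−1.11) fell.

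Guidance molecules were also split. Among ephrins and their receptors 10 of 18 rose and 5 fell (median 0.40), but the falls numbered 3 without pluripotent replicate 3 or without embryoid body replicate 1 and 2 without embryoid body replicate 3. EPHA7 rose by 3.0 ± 0.11, from 6.53 to 9.53 on average, with EPHA4, EFNA5 (1.87) and EFNB1 (1.56), while EPHA1 fell by 2.15 ± 0.12. In the semaphorin, slit and netrin list 17 of 43 rose and 10 fell (6 in a fit of all 18 arrays). DCC, the netrin receptor, rose by 2.48 ± 0.07, SEMA3E by 1.94 and SLIT1, a repellent of midline axons, by 1.87. SEMA4D (−1.10, or −0.69 with its probe sets averaged) fell.

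Markers of other cell types that embryoid bodies can hold were measured as whole lists. For the primitive streak and early mesoderm, 2 of 17 members rose and 2 fell, and the mean level of the list was 6.24 to 6.53 on pluripotent and 6.32 to 6.43 on embryoid body arrays. However, 2 of the 17 lay under the 40th percentile on all pluripotent arrays and had to differ. Of the 15 above it on at least 1 array of each state, 0 rose and 2 fell. TBXT (−0.10), MIXL1 (−0.16), TBX6 (0.08) and GSC (0.07) did not pass, and HAND1, FOXF1, MSGN1, TBX5 and TBX20 were below the 40th percentile on every array. For endothelium and blood, 3 of 15 fell and 1 rose, with a mean level of 6.44 to 6.57 and 5.94 to 6.01. The 3 falls were the receptors FLT1, KDR (−2.18) and TEK (−1.88), while the defining genes CDH5, PECAM1, TAL1, TIE1, PTPRC and HBZ were below the 40th percentile on every array. Of the 15, 1 lay under that level on all pluripotent arrays and 1, FLT1, on all embryoid body arrays, and both had to differ. Of the 13 above it on at least 1 array of each state, 0 rose and 2 fell.

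Endoderm and yolk sac markers rose in 9 of 21 cases and fell in 4, with a mean level of 6.36 to 6.4 on pluripotent and 6.54 to 6.57 on embryoid body arrays. Of the 21, 2 lay under the 40th percentile on all pluripotent arrays and 1 on all embryoid body arrays, and these had to differ. Of the 18 above it on at least 1 array of each state, 7 rose and 3 fell. AFP, the yolk sac and fetal liver albumin, was at 5.62, 5.75 and 6.23 on the pluripotent arrays and 7.65, 7.11 and 7.24 on the embryoid body arrays, a rise of 1.46 ± 0.17 (adjusted p 9.6e-05). The carrier TTR, which choroid plexus also makes, rose by 1.35 and the apolipoprotein APOA2 by 1.27. CST1, a cystatin, fell by 1.97 ± 0.13. GATA6 (−0.14) and SOX17 (−0.12), factors that define endoderm, did not pass, and ALB, FGA, FGB, FGG and HHEX were below the 40th percentile on every array. Of the 8 trophoblast and amnion genes tested 3 rose, TFAP2A, TFAP2C and GATA3, which the border list holds too, and 2 fell, KRT7 (−0.33) and IGFBP3 (−0.34), with a median of 0.01. The mean level of the list, 5.77 to 5.91 on pluripotent and 6.78 to 6.91 on embryoid body arrays, includes TFAP2A and TFAP2C. CGA, PSG1, PSG3, GCM1, ERVW-1 and VTCN1 were below the 40th percentile on every array. The part of such cells in the results was not tested.

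Most genes of the hypoxia and glycolysis list rose. Of 38 members tested 29 rose, 14 by 2-fold or more, and 3 fell (median 0.68). Of all genes tested 24.8% rose, 3.84% by 2-fold or more, and 27.3% fell. ANKRD37, a direct target of HIF with ankyrin repeats, was at 6.50, 6.72 and 6.66 on the pluripotent arrays and 9.79, 9.85 and 9.81 on the embryoid body arrays (adjusted p 1.0e-08). BNIP3, which tags mitochondria for removal, was at 7.97, 8.01 and 8.23 on the pluripotent arrays and 10.79, 10.67 and 10.68 on the embryoid body arrays, a rise of 2.64 ± 0.09 (adjusted p 4.5e-08). DDIT4, an inhibitor of mTORC1, was at 6.71, 6.72 and 6.84 on the pluripotent arrays and 8.98, 8.98 and 8.93 on the embryoid body arrays, a rise of 2.21 ± 0.07 (adjusted p 4.2e-08). Each of these genes had its 3 embryoid body arrays within a narrow range above all pluripotent arrays.

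The histone demethylase KDM3A (2.01), the collagen prolyl hydroxylases P4HA1 (1.96) and P4HA2 (1.39), the growth factor VEGFA (1.39) and the mitophagy receptor BNIP3L (1.28) rose with them. Glycolysis was covered by the enolase ENO2 (1.54) and the regulator PFKFB4 (1.44). HIF1A itself, which is controlled mainly as a protein, did not pass (−0.17), and neither did GAPDH (0.12) or ENO1 (−0.01). The falls were HK1 (−0.82), ADM (−0.78) and STC2 (−0.56), of which HK1 and STC2 were lost in a fit of all 18 arrays. The labels give no oxygen level for either state.

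**Figure D4:**
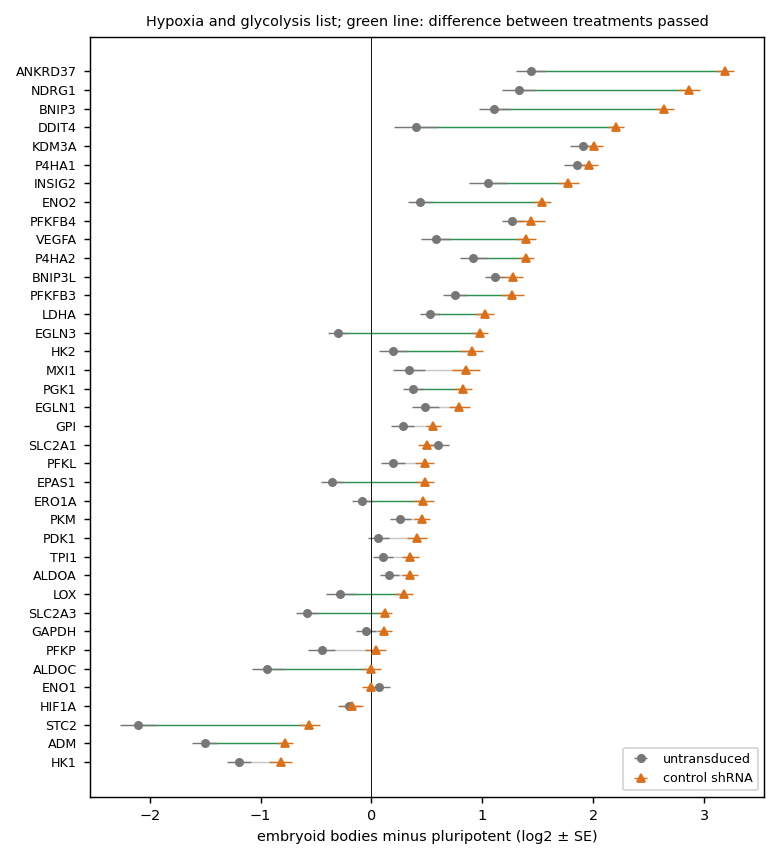
Difference between embryoid bodies and pluripotent cells (log2 ± standard error) for the 38 tested genes of the hypoxia and glycolysis list, with circles for untransduced and triangles for control shRNA cells and a green line where the difference between treatments passed. With the control shRNA the values run from −0.82 for HK1 to 3.19 for ANKRD37, and 29 of the 38 genes rose.

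HIF binds the core ACGTG, and the promoters of 3 of these genes are shown because they hold it close to the start of the gene. Each is the 250 bases before the RefSeq start (GRCh38.p14), 5′ to 3′ in the direction of the gene, with ACGTG on either strand in capitals. They lie at chr4:185396591-185396840 (plus strand) for ANKRD37, chr10:131981924-131982173 (minus strand) for BNIP3 and chr10:72273674-72273923 (plus strand) for DDIT4.
ANKRD37: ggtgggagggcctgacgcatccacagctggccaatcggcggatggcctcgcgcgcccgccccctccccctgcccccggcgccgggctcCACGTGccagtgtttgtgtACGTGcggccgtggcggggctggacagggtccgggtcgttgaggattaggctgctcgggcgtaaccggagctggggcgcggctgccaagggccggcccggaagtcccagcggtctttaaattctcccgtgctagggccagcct
BNIP3: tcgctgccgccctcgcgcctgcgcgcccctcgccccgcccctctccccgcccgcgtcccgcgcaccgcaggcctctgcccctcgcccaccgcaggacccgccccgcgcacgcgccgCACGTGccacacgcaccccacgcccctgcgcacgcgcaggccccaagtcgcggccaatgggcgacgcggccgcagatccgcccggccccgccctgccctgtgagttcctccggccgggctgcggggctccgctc
DDIT4: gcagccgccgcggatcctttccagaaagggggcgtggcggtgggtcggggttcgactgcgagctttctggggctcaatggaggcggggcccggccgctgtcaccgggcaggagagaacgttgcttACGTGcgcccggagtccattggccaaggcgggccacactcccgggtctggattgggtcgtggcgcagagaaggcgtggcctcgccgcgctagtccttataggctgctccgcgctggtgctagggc
Capitals in ANKRD37 begin 162 and 143 bases before the start, in BNIP3 134 bases before it and in DDIT4 125 bases before it. The run CACGTG in ANKRD37 and in BNIP3 is a palindrome and holds the core on both strands. Promoter windows, 250 bases before to 50 after the start, were searched on both strands, and genes can have several windows. Of 39 windows of the 26 list members that rose and had a window, 24 held ACGTG (61.5%). For the 3 members that fell the number was 0 of 9 windows, and for the 5 with a window that did not pass it was 3 of 9. Over all members tested it was 27 of 57 (47.4%). For all 35116 windows the share was 21.4%, or 24.8% for windows of the genes tested. Whether the motif goes with the rise within the list was not tested. A match is a description of the sequence and not a measured site. In the same way GCCNNNGGC, the core of the AP-2 site that TFAP2 proteins bind, was in 6 of 18 windows of border genes that rose, in 4 of 7 windows of border genes that did not pass, in 1 of 18 windows of crest specifiers that rose, in 31.0% of windows of the genes tested and in 23.2% of all windows, so the border genes that rose were close to the share of the genes tested. The E-box CAGGTG, bound by SNAI2 and ZEB factors, was in 3 of 7 windows of surface ectoderm genes that rose, in 3 of 7 of those that fell, in 19.3% of windows of the genes tested and in 20.6% of all.

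Genes of sterol and fatty acid synthesis were mostly lower. Of 24 members 18 fell, 9 by 2-fold or more (median −0.66). DHCR7, the last enzyme of cholesterol synthesis, was at 9.17, 9.44 and 9.41 on the pluripotent arrays and 7.90, 7.93 and 7.84 on the embryoid body arrays and fell by 1.45 ± 0.09 (adjusted p 1.4e-06). ACAT2 (−1.24), SQLE (−1.12), FDPS (−1.08), LSS (−1.03) and CYP51A1 (−1.01) act along the same route and fell, as did the fatty acid enzymes FASN (−1.20) and FADS2 (−1.21).

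Genes of DNA replication fell in 27 of 42 cases (median −0.35). CCNE1, the cyclin that starts S phase, fell by 1.13 ± 0.10, the helicase subunits MCM5, MCM3 and MCM6 changed by −0.95, −0.79 and −0.67, and the sliding clamp PCNA fell by 0.54 ± 0.09. Of 38 mitosis genes 10 rose and 12 fell (median −0.06), close to the 24.8% and 27.3% of all genes. FOXM1, a driver of mitotic transcription, fell by 0.62 ± 0.08, and CCNB2, a mitotic cyclin, rose by 0.51.

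Ribosome biogenesis factors were lower across the list: 45 of 61 fell, 5 by 2-fold or more, and 2 rose (median −0.48). The nucleolar proteins LYAR (−1.36), NOP16 (−1.29) and DDX21 (−1.28) and the processome subunit UTP20 (−1.15) fell most. The nucleolar factors TCOF1 and NOLC1, which are brought together by KBTBD8 and CUL3, also fell. TCOF1 was at 8.43, 8.52 and 8.67 on the pluripotent arrays and 7.96, 8.0 and 8.01 on the embryoid body arrays and fell by 0.55 ± 0.08 (adjusted p 3.8e-04). NOLC1 was at 9.83, 9.92 and 9.98 on the pluripotent arrays and 9.41, 9.33 and 9.34 on the embryoid body arrays and fell by 0.55 ± 0.07 (adjusted p 2.2e-04). Cytosolic ribosomal proteins showed small differences, with 9 of 61 up and 2 down (median 0.12). The rises numbered 5 without embryoid body replicate 3, 5 in a fit of all 18 arrays and 29 with an intensity trend and robust prior variance. RPL22L1, a paralogue of RPL22, fell by 1.30 ± 0.17 while RPL22 rose by 0.64. Such small genes have many near-identical pseudogenes that can share probes.

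Amino acid supply and stress genes mostly fell. In the integrated stress and unfolded protein list 24 of 37 fell and 4 rose (median −0.68), but the falls numbered 10 in a fit of all 18 arrays. The transporters SLC7A5, SLC7A3 (−1.91) and SLC1A5 (−1.09) and the serine synthesis enzyme PHGDH (−0.94) fell. In the p53 list 8 of 29 rose and 6 fell, against 24.8% and 27.3% of all genes. CCNG2 (2.15), GADD45A (1.72) and the cell cycle inhibitor CDKN1A (1.17) rose, and PMAIP1, a promoter of cell death, fell by 1.76 ± 0.10. Among interferon response genes 10 of 21 fell (4 in a fit of all 18 arrays) and 6 rose (3 without embryoid body replicate 3). IFI16, a DNA sensor, rose by 2.21 ± 0.12 and BST2, an antiviral membrane protein, by 2.15 ± 0.08, while the immunoproteasome subunit PSMB8 (−1.5) and the peptide transporter TAP1 (−1.36) fell. Lentivirus was present in both states.

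KBTBD8 fell with differentiation although both groups carried the control shRNA and not one against it. It was at 6.39, 7.09 and 7.03 on the pluripotent arrays and 4.43, 4.79 and 5.04 on the embryoid body arrays and fell by 2.08 ± 0.20 (adjusted p 2.4e-05). All its embryoid body arrays lay under the 40th percentile, so KBTBD8 was tested only through the pluripotent arrays and had to differ. The groups did not overlap, and the exact two-sided permutation test over 20 regroupings gave p = 0.1. That is the smallest p it can give for 3 against 3 arrays, and given the filter neither outcome adds support for the fall. CUL3, the scaffold of the ligase, was at 9.60, 9.71 and 9.66 on the pluripotent arrays and 9.85, 9.68 and 9.77 on the embryoid body arrays, a difference of 0.12 ± 0.08 (adjusted p 0.24). Among CUL3 and its other BTB adaptors 17 of 42 rose and 6 fell (median 0.16), with 10 rises in a fit of all 18 arrays. ENC1, a kelch adaptor of the early neural plate, rose by 2.84 ± 0.08 and KLHL24, which marks intermediate filaments for turnover, by 1.75 ± 0.10. KLHL4 (−1.99), a kelch adaptor, fell nearly as far as KBTBD8, and KEAP1, the adaptor that controls NRF2, fell by 0.73 ± 0.08.

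Differentiation with the control shRNA differed in size from that of untransduced cells for many of the genes above. The difference of the differences was tested on 12 arrays (limma, adjusted over the 13454 genes). It passed for 2221 genes (16.5%), 1133 with a higher value under the control shRNA (8.42%) and 1088 with a lower one (8.09%). In untransduced cells alone 6406 of the same genes changed (47.6%). The count of 2221 came down to 693 when all 18 arrays were fitted together and was 2323 without the KBTBD8 shRNA arrays numbered 2, which lie nearer to the other state. Array medians were 5.85 to 5.95 in untransduced and 5.97 to 6.12 in transduced samples, and each treatment is confounded with any difference in culture or handling, so the lentivirus and such differences cannot be told apart.

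Many border and crest genes differed upward. Of the 20 border genes tested, 16 had a larger value with the control shRNA, and of the 24 crest specifiers 10 had a larger and 2 a smaller one. TFAP2B rose by 1.10 in untransduced cells, so the control shRNA cells exceeded it by 4.60 ± 0.21 (adjusted p 1.2e-08). For PAX3 the excess was 4.15 ± 0.16, for SNAI2 3.73 ± 0.14 and for SOX10 2.0 ± 0.13. ETS1 fell in untransduced cells by 2.80 and rose here, a difference of 3.97 ± 0.15 (adjusted p 1.4e-09). FOXD3 (−1.17 untransduced, difference 2.12), NRP2 (−1.78, 3.55) and CYP26A1 (−0.73, 2.66) likewise went in opposite directions. TFAP2C fell by 0.49 without lentivirus and differed by 3.58.

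Forebrain genes differed more often downward than upward. In the neural plate and forebrain list 15 of 34 had a smaller value with the control shRNA and 4 a larger one. SIX3 rose by 4.41 in untransduced cells against 1.76 here, MEIS1 by 4.23 against 1.41, LIX1 by 5.36 against 3.63 and DACH1 by 4.60 against 2.66. Each of these differences passed on 12 arrays, and those of SIX3, LIX1 and DACH1 did not in the fit of all 18. OTX2 went the other way (1.19 against 2.48, lost with 18 arrays).

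The pluripotency list had a median of −0.94 here and −0.90 in untransduced cells, and 9 of its 31 members differed upward and 3 downward, among them GDF3 (−1.08). Some epithelial and pluripotency genes fell less. CDH1 fell by 3.99 in untransduced cells and by 0.51 ± 0.07 here, a difference of 3.48 ± 0.20 (adjusted p 5.2e-08). EPCAM fell by 3.65 and 0.74 ± 0.13, PODXL by 4.34 and 1.83 ± 0.07, and CRIPTO by 7.91 and 5.13 ± 0.11 in the same order, the last of which did not differ past the threshold with 18 arrays. MIR302A differed by 3.51 ± 0.40 (adjusted p 3.4e-05). Of the 38 hypoxia and glycolysis genes 20 had a larger value with the control shRNA, DDIT4 by 1.81 and ANKRD37 by 1.75, the latter lost with 18 arrays. Lower values were found for 10 of 61 ribosome biogenesis genes, 20 of 42 replication genes and 10 of 24 sterol genes. For KBTBD8 the difference was −0.32 ± 0.34 and did not pass (adjusted p 0.58).

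**Figure D5:**
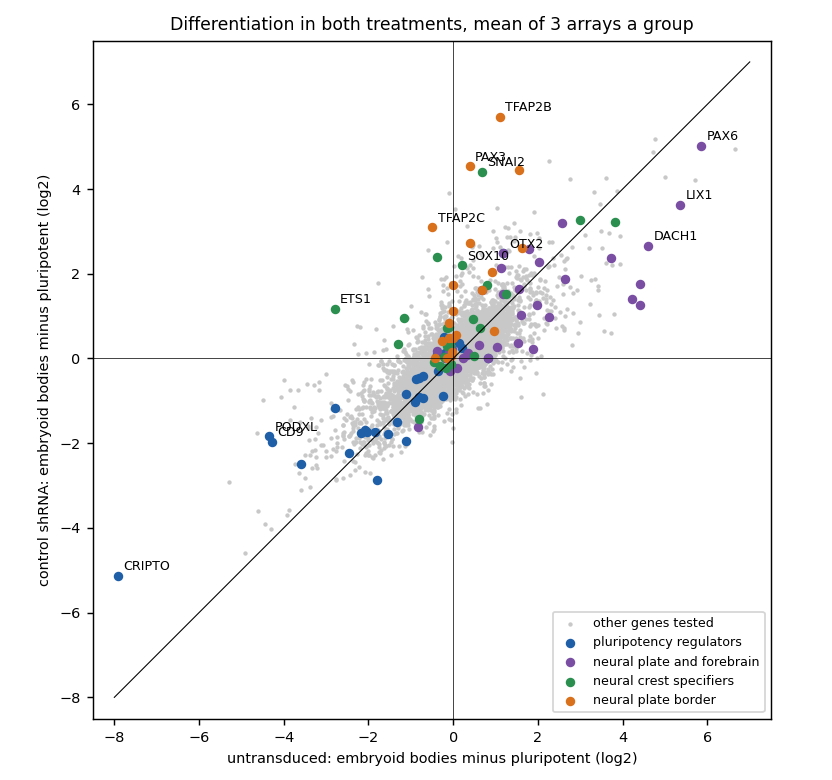
Difference between embryoid bodies and pluripotent cells (log2, mean of 3 arrays a group) in untransduced cells on the horizontal axis and with the control shRNA on the vertical axis, 1 point per gene tested, with the members of 4 lists in colour and a line of equal values. Border and crest genes such as TFAP2B, PAX3 and SNAI2 lie above the line, and forebrain genes such as LIX1 and DACH1 lie below it.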

How the data were processed

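Affymetrix Human Gene 1.0 ST arrays measured RNA of the 6 samples compared and of 6 untransduced samples. The deposited values are log2 intensities. The submitters' processing notes name GCRMA, with no version, as the authors' method. The base of the logarithm was taken from the method and the range of values, and whether all 18 arrays were normalized together is not given in the sources used here. Of 33297 probe sets, 19460 carried 1 symbol, 1754 several and 12083 none. Where a gene had several probe sets (769 genes), the 1 with the highest mean over 18 arrays was used. Symbols were updated through RefSeq (GRCh38.p14), where 31 probe sets had no entry.

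Groups were fitted in limma 3.58.1 (R 4.3.3) with lmFit and eBayes, as group means on the 6 arrays alone, and on 12 arrays for the difference between treatments. Benjamini-Hochberg adjustment covered all 13454 genes tested. The fit on 6 arrays was also run on simulated data with far fewer changed genes than were called here, and no result above rests on that run. The number of arrays limits the precision. The alternatives were other filters, normalizations, prior variances, array sets and probe set rules, a test against 1.2-fold, and leaving out each array. Tables were handled in pandas 2.3.3 and plots in matplotlib 3.10.9 (Python 3.11.15).

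The members and the 37 lists (1260 genes) were chosen with earlier results of these data known. Genes were named by rank: the 25 largest increases and 25 largest decreases past the threshold with groups that do not overlap, up to 12 members of a list by size of difference, the 5 markers, KBTBD8, CUL3, TCOF1 and NOLC1, and list members that were not tested. CDH1, EPCAM, SOX9, PROM1, HK1, ADM, HIF1A, GAPDH, ENO1, GATA6 and SOX17 lie outside this rule and were named after their values were seen.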

Additional observations from a re-analysis of the deposited data

Results flagged for a closer look

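The difference between differentiation with the control shRNA and without lentivirus passed for 2221 genes (limma on 12 arrays, adjusted p under 0.05). Among the 25 largest increases and the markers, the rise was larger with the control shRNA, on the log2 scale, for TFAP2B (by 4.60), PAX3 (4.15), CDH9 (4.0), SNAI2 (3.73), DKK1 (3.48), TFAP2A (2.89), KRTAP21-1 (2.52), WLS (2.41), SOX10 (2.0), ANKRD37 (1.75), BMP5 (1.55), CDH6 (1.46) and ZFHX4 (0.61). It was smaller for LIX1 (−1.74), DLK1 (−1.72), IGFBP5 (−1.51), PAX6 (−0.83) and SOX5 (−0.60). Among the 25 largest decreases, GDF3 fell further with the control shRNA (−1.08). The fall was smaller for CRIPTO (2.78), RARRES2 (2.38), CALB1 (1.24), IDO1 (1.01), ERVH48-1 (0.93), MBOAT1 (0.76), LRAT (0.73), SCG3 (0.69) and ITPR2 (0.64).

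In a fit of all 18 arrays the differences of TFAP2B, PAX3, CDH9, SNAI2, DKK1, KRTAP21-1 and SOX10 passed, and those of the other genes just named did not. Quantile normalization ended the calls of PAX6, SOX5, IDO1, SCG3, ERVH48-1, ITPR2 and MBOAT1, and averaging probe sets gave 1.37 for KRTAP21-1. Leaving out 1 array ended the call in at least 1 of 12 cases for ZFHX4, SOX5, IDO1, SCG3 and ERVH48-1.

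Genes that changed in both treatments but in opposite directions, with a tested difference, numbered 169, of which 102 rose with the control shRNA and 67 fell. Those of 2-fold or more among the list members that rose with the control shRNA and fell without lentivirus were ETS1 (3.97), TFAP2C (3.58), NRP2 (3.55), PCDH10 (3.13), MIR21 (2.96), CYP26A1 (2.66), RHOBTB3 (2.53), FOXD3 (2.12), GAP43 (2.04), AFP (2.02), APCDD1 (1.85), APOA2 (1.57), OLIG3 (1.37) and IRX2 (1.25, lost with 18 arrays). The reverse held for IGFBP3 (−2.30), IL17RD (−1.88), ETV5 (−1.79), FN1 (−1.5) and CHRDL1 (−1.18).

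Probe sets with several symbols or none were counted without reading them as genes. Of 6277 tested, 1338 were called, 881 higher and 457 lower in embryoid bodies, and 204 and 67 of these by 2-fold or more.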

How the results depend on the processing

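The count of 7003 changed genes was 3448 when the difference had to exceed 1.2-fold (limma treat), 4778 in a fit of all 18 arrays, and 6049 to 7024 with 1 array left out. The count at 2-fold or more (1049) ranged from 982 to 1089 over all settings. The 2221 genes whose differentiation differed between treatments became 778 against 1.2-fold, 693 with all 18 arrays, 2323 with 16 arrays (a set picked once the data had been seen) and 1719 to 2726 with 1 array left out. Across settings 46.2% to 50.4% of calls were rises. KBTBD8 kept its fall in every setting run (−1.92 to −2.31 with 1 array left out).

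Replicate numbers are shared by the groups but did not pair them: deviations of arrays with the same number correlated at −0.183, −0.152 and 0.049. With the replicate block 6585 genes changed between the states, 1049 by 2-fold or more, and 2047 differed between treatments.

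Of 400 called genes that the naming rule covers or the text adds, 50 did not pass against 1.2-fold and 55 with all 18 arrays, and 12 lost the call in some fit without 1 array. Of the 50 largest changes, ERVH48-1 was the only such case (18 arrays). RPL29 was 0.26 from its chosen probe set and −0.04 with all probe sets averaged. Of 218 differences between treatments, 143 did not pass with 18 arrays. The number of arrays limits precision, and low intensities limit the 196 genes tested that lay under the 40th percentile on all pluripotent arrays and the 232 on all embryoid body arrays.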

Other observations

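Genes of small nucleolar RNAs, which guide chemical marks on ribosomal RNA and belong to none of the lists, were looked at after their values had been seen. Of 72 box C/D genes tested, 19 rose and 22 fell, close to the 24.8% and 27.3% of all genes (median −0.08, against −0.02). At 2-fold or more 9 rose and 1 fell, where 3.84% and 3.96% of all genes did. SNORD59B was at 6.13, 6.12 and 6.55 on the pluripotent arrays and 8.24, 8.32 and 8.21 on the embryoid body arrays, a rise of 1.99 ± 0.12 (limma, adjusted p 1.0e-06). SNORD14E was at 7.29, 7.68 and 7.80 on the pluripotent arrays and 9.55, 9.37 and 9.50 on the embryoid body arrays, a rise of 1.88 ± 0.13 (adjusted p 2.5e-06). Both were clear of overlap, and in untransduced cells the rises were 1.88 and 2.04. The call for SNORD14E was lost in a fit of all 18 arrays. Of 43 box H/ACA genes 8 rose and 15 fell, 2 of them by 2-fold or more, and SNORA74A, with the larger of these changes, fell by 1.18 ± 0.14. Most of these genes lie within introns of other genes, so a probe set can also read unspliced RNA of the host. The microRNA gene MIR19B2, picked in the same way, was at 4.91, 5.21 and 4.93 on the pluripotent arrays and 6.75, 6.81 and 7.04 on the embryoid body arrays, a rise of 1.85 ± 0.11 (adjusted p 1.1e-06). All its pluripotent arrays lay under the 40th percentile, so MIR19B2 had to differ.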
